A study of Mus musculus with 23 samples.

Results

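The genes described here are 10 that respond to stress or halt growth, most of them textbook targets of the transcription factor p53: *Cdkn1a*, *Mdm2*, *Ccng1*, *Gadd45a*, *Gadd45b*, *Gadd45g*, *Btg2*, *Phlda3*, *Sesn1* and *Trp53inp1*. These genes were chosen with earlier results of these data known. The rule itself went by name, with no measured value in it, and took the array probes whose gene name equals 1 of these symbols. This gave 16 probes of the 56605 on the array that are not controls, for 10 of its 37074 gene names. Of these, 13 probes passed the filter on dim signal and every gene kept at least 1. The 3 others, 2 of *Cdkn1a* and 1 of *Gadd45a*, were not well above background on any array.

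The expression of these genes was measured in liver of male C57Bl6/J mice on 23 Agilent 1-colour arrays, 1 per mouse. Wild-type (WT) mice and *Pxr*-/- mice, which lack the pregnane X receptor (PXR, encoded by *Nr1i2*), were injected intraperitoneally each day for 4 days with the rodent PXR ligand pregnenolone 16α-carbonitrile (PCN, 100 mg/kg) in corn oil or with corn oil alone, and were killed 6 h after the last injection. Control (CONT) groups had 6 WT and 6 *Pxr*-/- arrays, and PCN groups 5 WT and 6 *Pxr*-/- arrays. The WT mice were purchased and the *Pxr*-/- mice, which were backcrossed to the same strain, were bred in the facility, so genotype and colony cannot be told apart.

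p53 is a transcription factor that is stabilised by DNA damage and other stress, and its targets stop the cell cycle, repair DNA, kill the cell or limit p53 itself. Several of them are also induced without p53, by growth factors, inflammatory signals or nuclear receptors. In liver the GADD45 proteins, small acidic proteins that bind the kinase MTK1 upstream of p38 and JNK, are known for their response to partial hepatectomy and to liver mitogens.

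The labelled tissue and treatment were checked first. All 6 hepatocyte markers, *Alb* among them, were well above background on all 23 arrays. *Cyp3a11*, the classical PXR target, rose by 3.55 on the log2 scale with PCN in WT mice and differed by 0.31 in *Pxr*-/- mice (adjusted p = 0.431). The 1 probe of *Nr1i2* did not separate the genotypes: its normalized log2 signal was 10.63 to 12.15 in WT CONT and 10.16 to 12.08 in *Pxr*-/- CONT mice, and the sources used here do not say whether it lies in the deleted part. Between 29510 and 33321 probes were well above background per array, and arrays of a group correlated at 0.988 to 0.997. Arrays were washed in 2 batches, each of which held 3 arrays of every group except WT PCN, which had 2 in the second.

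Because *Gadd45b* and *Gadd45a* gave the largest changes with PCN in WT mice, and *Gadd45g* and *Cdkn1a* are the family member and the classical p53 target set beside them below, the sequence around the start of these 4 genes is given. Each runs from 250 bases before to 50 bases after the first base of the gene, on the gene's strand, from RefSeq (GRCm38.p6): chr10:80929841-80930140 (+) for *Gadd45b*, chr6:67037358-67037657 (-) for *Gadd45a*, chr13:51846425-51846724 (+) for *Gadd45g* and chr17:29090729-29091028 (+) for the first of 2 *Cdkn1a* starts. Capitals mark matches, on either strand, to the motifs named after them.
Gadd45b: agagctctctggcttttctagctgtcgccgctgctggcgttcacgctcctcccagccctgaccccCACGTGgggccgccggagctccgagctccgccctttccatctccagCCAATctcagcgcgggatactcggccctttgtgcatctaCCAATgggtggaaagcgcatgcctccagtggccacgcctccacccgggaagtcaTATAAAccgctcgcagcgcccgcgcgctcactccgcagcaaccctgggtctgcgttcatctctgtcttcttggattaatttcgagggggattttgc
Gadd45a: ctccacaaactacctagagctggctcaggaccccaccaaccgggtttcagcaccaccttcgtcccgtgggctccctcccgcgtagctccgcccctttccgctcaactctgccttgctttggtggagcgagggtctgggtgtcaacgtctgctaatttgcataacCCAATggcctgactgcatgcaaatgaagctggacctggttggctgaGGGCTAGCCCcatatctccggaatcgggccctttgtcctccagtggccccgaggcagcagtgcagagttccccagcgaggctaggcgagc
Gadd45g: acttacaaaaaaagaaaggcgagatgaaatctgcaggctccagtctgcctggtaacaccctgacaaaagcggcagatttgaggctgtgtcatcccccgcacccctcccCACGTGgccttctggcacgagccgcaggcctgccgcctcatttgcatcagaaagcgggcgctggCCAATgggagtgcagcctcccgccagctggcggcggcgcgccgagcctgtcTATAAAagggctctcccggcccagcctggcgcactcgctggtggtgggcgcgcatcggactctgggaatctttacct
Cdkn1a: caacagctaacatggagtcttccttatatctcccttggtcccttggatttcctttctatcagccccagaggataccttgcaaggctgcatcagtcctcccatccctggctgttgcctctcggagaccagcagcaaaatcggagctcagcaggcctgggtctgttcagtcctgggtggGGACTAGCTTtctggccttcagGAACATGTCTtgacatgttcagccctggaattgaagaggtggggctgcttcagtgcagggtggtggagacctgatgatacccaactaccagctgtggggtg

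The motifs searched were the TATA box (TATAAA), the CCAAT box (CCAAT), the cyclic AMP response element (TGACGTCA), the E-box (CACGTG) and the AP-1 site (TGACTCA). Also searched were the nuclear receptor half-site, in the spelling AGTTCA only, and, by name, the consensus p53 half-site and the consensus NF-κB site. None of the matches marked above overlaps another. *Gadd45b* and *Gadd45g* each held a TATA box and an E-box, and *Gadd45a* held neither. Of all 32851 windows of this length, 13.6% held the TATA box and 7.15% the E-box. *Gadd45b*, *Gadd45a* and *Gadd45g* held a CCAAT box, as did 37.4% of all windows.

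The listed genes had 11 windows for 9 genes, since *Cdkn1a* and *Sesn1* have 2 starts each. A p53 half-site was matched in 5 of the 11 windows (the first of *Cdkn1a*, with 2 matches, the second of *Sesn1*, and those of *Mdm2*, *Ccng1* and *Gadd45a*), against 8.36% of all windows. The cyclic AMP response element was matched in the *Btg2* window alone of the 11 and in 1.79% of all windows. The nuclear receptor half-site in the spelling searched (14.0% of all windows), the AP-1 site (5.2%) and the NF-κB site (8.46%) were matched in none of these members' windows. A match is a stretch of letters only, and binding was not measured.

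PCN raised 5 of the 10 genes in WT mice and lowered none. The 5 were *Gadd45b*, *Gadd45a*, *Cdkn1a*, *Phlda3* and *Trp53inp1*. A gene counted as called when limma gave an adjusted p no higher than 0.05 with a change of more than 1.5-fold, with p-values adjusted by Benjamini-Hochberg over all 32087 probes kept, and was read from its brightest kept probe. Of all 21056 genes tested, 3.79% were called higher and 2.39% lower in this comparison. In *Pxr*-/- mice 2 of the 10 rose, *Gadd45b* and *Gadd45a*, and none fell, where 1.42% of all genes were called higher and 0.86% lower. At an unadjusted p under 0.05 limma counted 6 of the 10 in WT mice, all higher, and 5 in *Pxr*-/- mice, of which *Sesn1* was lower, while 7553 and 4812 of the 21056 genes tested did so. The median log2 change of the 10 was 0.83 in WT and 0.52 in *Pxr*-/- mice, beside -0.02 and -0.01 over all genes tested. As RNA was taken from whole liver, a change in the RNA of a cell cannot be told apart from a change in the share of cells that hold it.

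**Figure D1:**
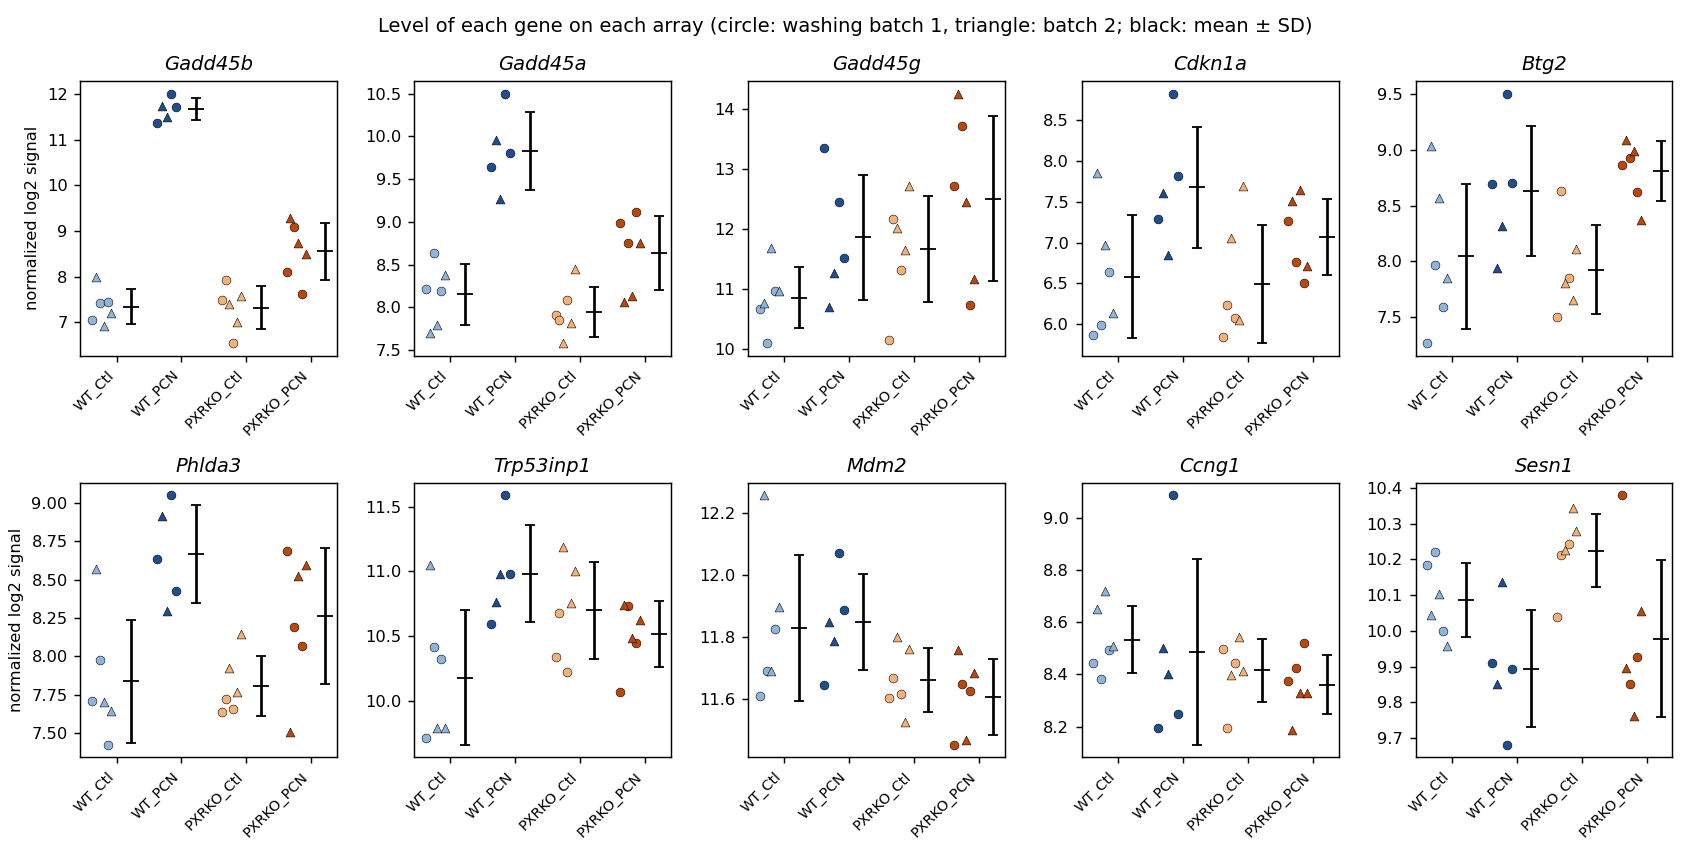
Normalized log2 signal of each gene (y axis, its own scale in each panel) on each array of the 4 groups, with circles for washing batch 1, triangles for batch 2 and black bars for mean ± SD. *Gadd45b* in the 5 WT PCN mice lies between 11.38 and 12.02, above every other array, while *Mdm2*, *Ccng1* and *Sesn1* overlap between groups.

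*Gadd45b*, the growth arrest and DNA damage inducible gene of the family best known from liver growth, gave the largest change. Its probe lies at chr10:80394367-80394426 (+, mm9, the build of the array files). In WT CONT mice its normalized log2 signal had a lowest value of 6.93, a median of 7.31 and a highest of 7.997. In the 5 WT PCN mice it was 11.38, 11.51, 11.71, 11.74 and 12.02. Every WT PCN mouse thus stood above every WT CONT mouse, and the log2 change was 4.35 (SE 0.26, 95% confidence interval 3.81 to 4.89), or 20.3-fold, with an adjusted p of 1.54e-10.

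The response of *Gadd45b* was smaller in *Pxr*-/- mice. The lowest, median and highest log2 signals were 6.54, 7.45 and 7.92 in CONT mice and 7.62, 8.62 and 9.29 in PCN mice. The groups overlapped, with 5 of the 6 PCN mice above the highest CONT mouse. The log2 change was 1.23 (SE 0.25, 95% confidence interval 0.72 to 1.74), or 2.35-fold (adjusted p = 0.00546).

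The change of *Gadd45b* differed between the genotypes by 3.12 on the log2 scale (SE 0.36, 95% confidence interval 2.37 to 3.86, adjusted p = 1.6e-05), and it was the 1 member called in this test of the difference itself. Over all genes, 0.807% were called with a higher and 0.242% with a lower PCN effect in WT than in *Pxr*-/- mice. In order of level, WT PCN mice stood first with a mean of 11.67 ± 0.24 (SD, n = 5), then *Pxr*-/- PCN mice with 8.55 ± 0.62 (n = 6). The lowest levels, 7.34 ± 0.38 in WT CONT and 7.32 ± 0.48 in *Pxr*-/- CONT mice (n = 6 each), did not differ beyond their spread (difference -0.02, 95% confidence interval -0.53 to 0.50, adjusted p = 0.986).

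*Gadd45a*, the family member that p53 induces through a site in its gene, followed with a smaller change. Its probe lies at chr6:66985376-66985435 (-, mm9). In WT CONT mice the lowest, median and highest log2 signals were 7.70, 8.20 and 8.64. In WT PCN mice the signals were 9.26, 9.64, 9.80, 9.95 and 10.50, all above the CONT mice. The log2 change was 1.65 (SE 0.19, 95% confidence interval 1.24 to 2.05), or 3.13-fold (adjusted p = 5.17e-06).

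*Gadd45a* also rose in *Pxr*-/- mice, from a lowest, median and highest signal of 7.58, 7.88 and 8.45 to 8.07, 8.76 and 9.11. Here 4 of 6 PCN mice stood above the highest CONT mouse. The log2 change was 0.69 (SE 0.19, adjusted p = 0.0293), 1.61-fold, close to the threshold. The call was lost without *Pxr*-/- CONT replicate 1, 2, 3 or 5 or *Pxr*-/- PCN replicate 1, 3, 5 or 6, with changes of 0.62 to 0.70 and adjusted p of 0.0516 to 0.0684. Between the genotypes the change differed by 0.96 (95% confidence interval 0.40 to 1.52), which did not pass the threshold (adjusted p = 0.0803).

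Among PCN-treated mice, *Gadd45a* and *Gadd45b* were the 2 members that differed between genotypes, and both were lower in *Pxr*-/- mice. *Gadd45b* was lower by a log2 difference of -3.13 (SE 0.26, adjusted p = 5.73e-08) and *Gadd45a* by -1.16 (SE 0.19, adjusted p = 0.000833), and neither gene's groups overlapped. Over all genes, 1.36% were called lower and 0.731% higher in *Pxr*-/- PCN than in WT PCN mice. Groups that did not overlap were found between PCN and CONT mice for 2 of the 10 members in WT mice, *Gadd45a* and *Gadd45b*, and for none in *Pxr*-/- mice, against 12.4% and 3.15% of all genes.

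*Gadd45g*, the remaining member of the family, had the widest confidence intervals of the 10. In WT CONT mice the lowest, median and highest log2 signals were 10.097, 10.86 and 11.68, and in WT PCN mice the signals were 10.70, 11.26, 11.52, 12.46 and 13.36. The *Pxr*-/- CONT mice spanned 10.15 to 12.72 and the *Pxr*-/- PCN mice 10.73 to 14.26. All groups overlapped. The log2 change with PCN was 1.02 in WT (95% confidence interval -0.16 to 2.20, adjusted p = 0.211) and 0.84 in *Pxr*-/- mice (95% confidence interval -0.28 to 1.96, adjusted p = 0.392).

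**Figure D2:**
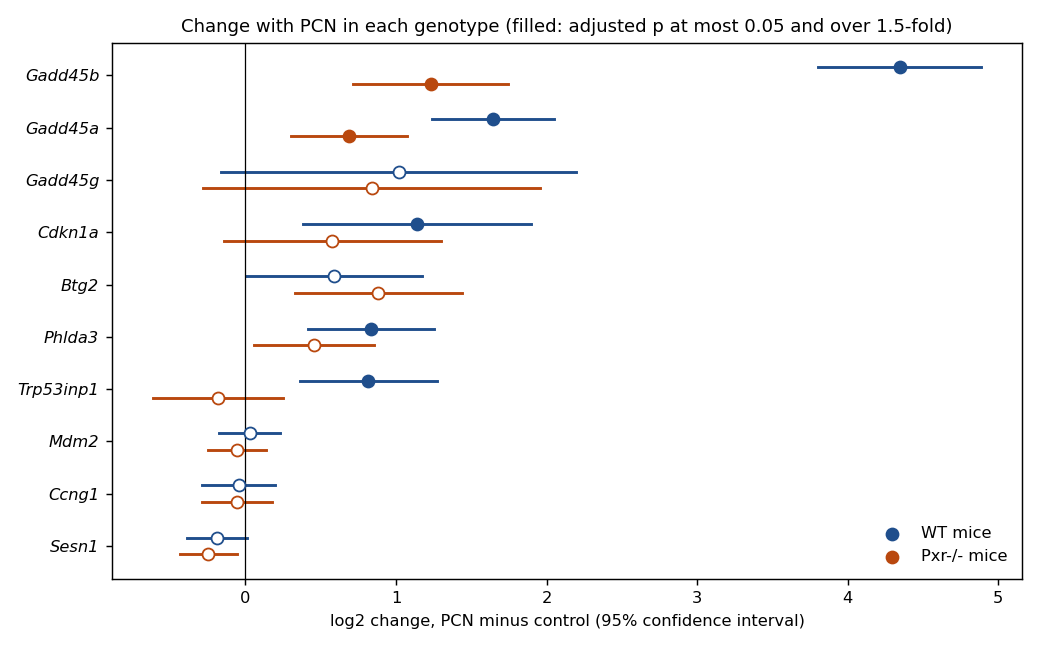
Log2 change with PCN (x axis) of each gene in WT (blue) and *Pxr*-/- mice (orange), with 95% confidence intervals and filled points for called changes. *Gadd45b* lies at 4.35 in WT and 1.23 in *Pxr*-/- mice, the intervals of *Mdm2* and *Ccng1* span 0 in both, and those of *Gadd45g* are the widest.

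*Cdkn1a* encodes p21, an inhibitor of cyclin-dependent kinases and the classical p53 target in growth arrest. Its probe above background lies at chr17:29237377-29237436 (+, mm9). The lowest, median and highest log2 signals were 5.87, 6.39 and 7.86 in WT CONT mice, and the WT PCN mice gave 6.85, 7.29, 7.60, 7.82 and 8.83. The groups overlapped, with 1 PCN mouse above the highest CONT mouse. The log2 change was 1.14 (SE 0.37, 95% confidence interval 0.38 to 1.90), 2.2-fold, with an adjusted p of 0.0275.

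The call of *Cdkn1a* in WT mice was not stable. It was lost without WT PCN replicate 4, which held the highest value (change 0.81, adjusted p = 0.0957), without WT PCN replicate 5 (1.06, adjusted p = 0.0634) and without WT CONT replicate 1, 3 or 6 (1.03, 1.05 and 1.01). It was also lost when only the WT arrays were fitted (adjusted p = 0.0745). Within washing batch 1 the change was 1.81 (adjusted p = 0.00672), and within batch 2 it was 0.24 (adjusted p = 0.833).

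*Cdkn1a* was not called in *Pxr*-/- mice, with a log2 change of 0.58 (95% confidence interval -0.14 to 1.30, adjusted p = 0.353). The lowest, median and highest signals were 5.84, 6.15 and 7.69 in CONT and 6.51, 7.02 and 7.65 in PCN mice, and the groups overlapped. The difference between the genotypes was 0.56 (95% confidence interval -0.48 to 1.61, adjusted p = 0.668).

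*Phlda3*, whose PH-domain protein opposes activation of the kinase Akt, rose in WT mice. The lowest, median and highest log2 signals were 7.43, 7.71 and 8.57 in WT CONT mice, and the PCN mice gave 8.29, 8.43, 8.64, 8.92 and 9.05. In this gene 3 of 5 PCN mice stood above all CONT mice. The log2 change was 0.84 (SE 0.20, 95% confidence interval 0.42 to 1.25, adjusted p = 0.00471). Its change in *Pxr*-/- mice was 0.45 (95% confidence interval 0.05 to 0.85, adjusted p = 0.166) and was called only without *Pxr*-/- PCN replicate 2 among the fits that left out 1 array (0.62, adjusted p = 0.0367). The difference between the genotypes was 0.38 (95% confidence interval -0.19 to 0.96, adjusted p = 0.576).

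*Trp53inp1*, which encodes a stress-induced protein that promotes p53 activity and autophagy, rose in WT mice and was not called in *Pxr*-/- mice. In WT CONT mice the lowest, median and highest log2 signals were 9.72, 10.06 and 11.05, and the WT PCN mice gave 10.60, 10.77, 10.98, 10.98 and 11.59. The groups overlapped, since WT CONT replicate 2 lay above all but 1 of the PCN mice. The log2 change was 0.82 (SE 0.22, 95% confidence interval 0.36 to 1.27, adjusted p = 0.00945) in WT and -0.18 (95% confidence interval -0.61 to 0.25, adjusted p = 0.673) in *Pxr*-/- mice. The difference of 1.00 between the genotypes (95% confidence interval 0.37 to 1.62) did not pass (adjusted p = 0.107), but did without WT CONT replicate 2 (1.15, adjusted p = 0.0304). A second probe, also kept, gave 0.48 in WT mice (adjusted p = 0.0475), under the fold threshold, and -0.38 in *Pxr*-/- mice.

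*Btg2*, an antiproliferative gene whose protein recruits the CCR4-NOT deadenylase, had the larger estimate in *Pxr*-/- mice. Its log2 change was 0.59 in WT mice (95% confidence interval 0.00 to 1.17, adjusted p = 0.143) and 0.88 in *Pxr*-/- mice (95% confidence interval 0.33 to 1.44, adjusted p = 0.0511). The lowest, median and highest signals in *Pxr*-/- mice were 7.50, 7.83 and 8.63 without and 8.37, 8.89 and 9.09 with PCN, so 4 of 6 PCN mice stood above all CONT mice. The value lies at the threshold: the second kept probe of *Btg2* was called in *Pxr*-/- mice (0.98, adjusted p = 0.0354), and the main probe was called in 7 of the 23 fits that each left out 1 array, at 0.88 to 1.03. Those 7 fits lacked WT CONT replicate 1, 2 or 4, WT PCN replicate 2 or 4, *Pxr*-/- CONT replicate 2 or *Pxr*-/- PCN replicate 6. Where a WT array was left out, the change in *Pxr*-/- mice stayed at 0.88, since no *Pxr*-/- array was removed. Of the fits without a *Pxr*-/- array, only those without CONT replicate 2 or PCN replicate 6 called it. Over the 23 fits the adjusted p ran from 0.0251 to 0.116. It was also called there with normexp background correction (adjusted p = 0.042), in the deposited values (0.0489), without the batch term (0.0472), with only the *Pxr*-/- arrays (0.0176) and as the mean of both probes (0.0412). The WT change was called without WT CONT replicate 2 (0.78, adjusted p = 0.0355) and within washing batch 1 (1.36, adjusted p = 0.0125). The difference between the genotypes was -0.30 (95% confidence interval -1.10 to 0.51, adjusted p = 0.785).

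Little change was seen in *Mdm2* and *Ccng1*. *Mdm2*, the ubiquitin ligase that p53 induces and that degrades p53, had a log2 change of 0.03 in WT (95% confidence interval -0.17 to 0.23) and -0.06 in *Pxr*-/- mice (-0.25 to 0.13). *Ccng1*, cyclin G1, changed by -0.04 in WT (95% confidence interval -0.29 to 0.20) and -0.05 in *Pxr*-/- mice (-0.29 to 0.18). For these genes the intervals leave no room for a change of 1.5-fold in either genotype.

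*Sesn1*, a sestrin that restrains the growth kinase mTORC1, had negative estimates in both genotypes, -0.19 in WT (95% confidence interval -0.39 to 0.01, adjusted p = 0.165) and -0.25 in *Pxr*-/- mice (-0.44 to -0.06, adjusted p = 0.114). Here 4 of 5 WT PCN mice and 4 of 6 *Pxr*-/- PCN mice lay below the lowest CONT mouse of their genotype. The log2 signals ran from 9.68 to 10.38 over all 23 arrays.

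Without PCN no difference between the genotypes was detected in these genes. None of the 10 was called between *Pxr*-/- CONT and WT CONT mice by limma, and 1, *Trp53inp1*, had an unadjusted p under 0.05 (log2 difference 0.52, 95% confidence interval 0.09 to 0.95, adjusted p = 0.351). Over all 21056 genes, 2566 had an unadjusted p under 0.05 and 0.309% were called in either direction. The widest interval was that of *Gadd45g*, at 0.81 (95% confidence interval -0.31 to 1.93).

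The WT responses were then set beside each other within each washing batch. *Gadd45b* rose by 4.40 in batch 1 and 4.24 in batch 2, and *Gadd45a* by 1.63 and 1.65, both called in each batch. *Phlda3* gave 1.00 and 0.63 and *Trp53inp1* 0.90 and 0.66, with calls in batch 1 only. *Btg2* (1.36 and -0.36) and *Gadd45g* (1.87 and -0.15) differed in sign between the batches, and *Cdkn1a* gave 1.81 and 0.24. Whether the PCN effect of these 3 differs between batches was not tested.

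*Gadd45b* in *Pxr*-/- mice gave 0.95 in batch 1 (adjusted p = 0.306) and 1.51 in batch 2 (adjusted p = 0.049), and *Gadd45a* 1.00 (adjusted p = 0.0751) and 0.37 (adjusted p = 0.572). The difference between the genotypes in *Gadd45b* held in each batch, at 3.45 (adjusted p = 0.0225) and 2.73 (adjusted p = 0.0211).

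**Figure D3:**
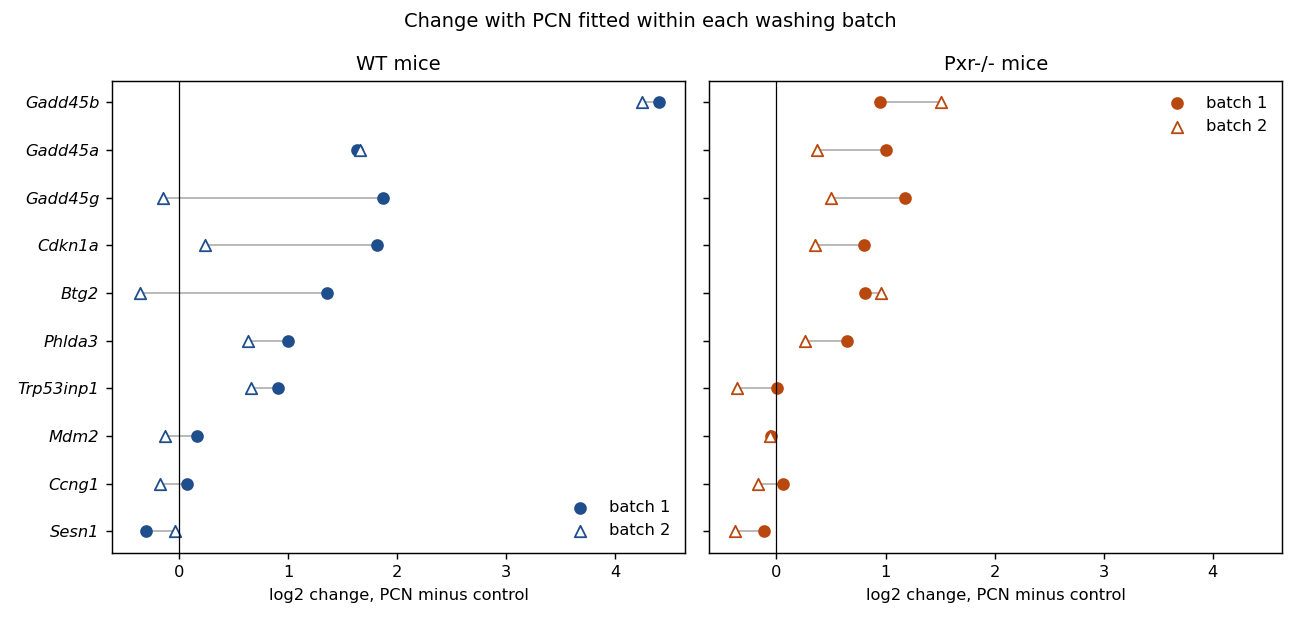
Log2 change with PCN (x axis) fitted within washing batch 1 (filled circles) and within batch 2 (open triangles) for each gene, in WT (left) and *Pxr*-/- mice (right). *Gadd45b* (4.40 and 4.24) and *Gadd45a* (1.63 and 1.65) coincide in WT mice, whereas *Gadd45g*, *Cdkn1a* and *Btg2* lie far apart.

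Of the mice, WT PCN replicate 4 held the highest level of its group in 8 of the 10 genes and WT CONT replicate 2 in 6 of 10, *Cdkn1a*, *Mdm2*, *Gadd45b*, *Btg2*, *Phlda3* and *Trp53inp1* in both. WT PCN replicate 4 was washed in batch 1 and WT CONT replicate 2 in batch 2, so the WT change within each batch included 1 of these arrays. When both arrays were left out, a choice made after seeing these values, 5 genes were called in WT mice, as in the full data, with *Gadd45b* at 4.36, *Gadd45a* at 1.45, *Cdkn1a* at 1.03, *Phlda3* at 0.87 and *Trp53inp1* at 0.81. *Btg2* then joined the called genes of *Pxr*-/- mice.

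After group and batch means were removed, the 10 genes still varied together in part over the 23 arrays. The highest Pearson correlations were 0.76 between *Mdm2* and *Trp53inp1* and 0.71 between *Cdkn1a* and *Btg2*, and the lowest was -0.42 between *Gadd45b* and *Sesn1*. *Gadd45a* and *Gadd45b*, the genes with the largest PCN responses in WT mice, did not share their residual variation (r = -0.19). Without the 2 arrays named above, r fell to 0.51 for *Mdm2* with *Trp53inp1* and to 0.47 for *Cdkn1a* with *Btg2*, and that of *Mdm2* with *Btg2* fell from 0.52 to 0.03, so part of this covariation rested on those mice. These values describe the arrays, which share normalization, and carry no test.

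**Figure D4:**
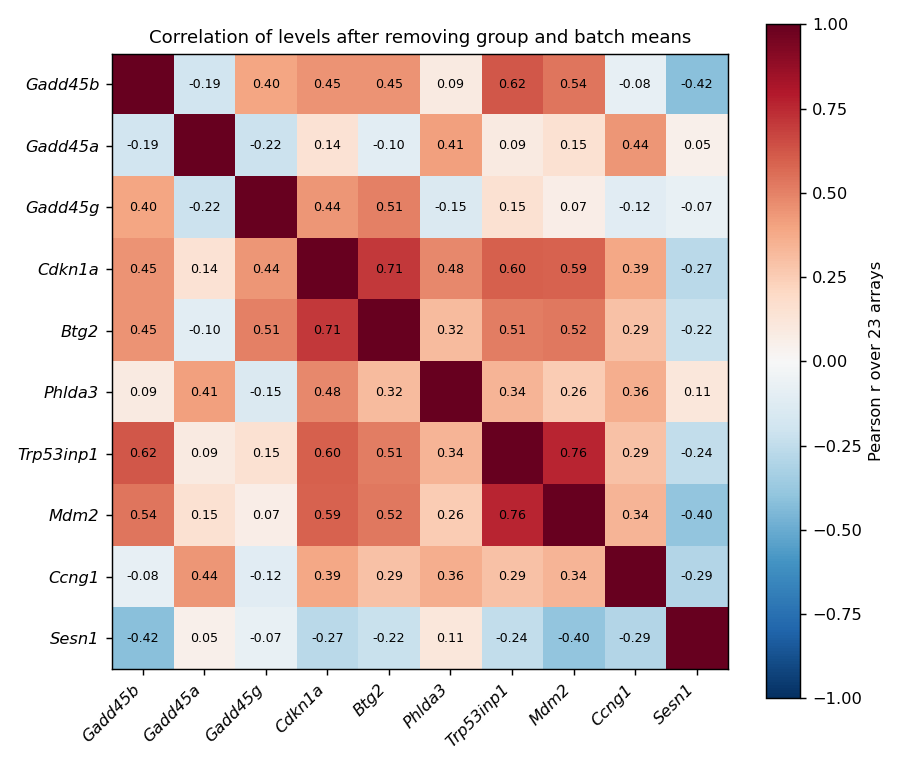
Pearson correlation (colour and number) of the normalized log2 signals of each pair of genes over 23 arrays after group and washing batch means were removed. *Mdm2* with *Trp53inp1* (0.76) and *Cdkn1a* with *Btg2* (0.71) are highest, and *Sesn1* correlates weakly or negatively with the others.

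Of 15057 other genes compared in the same way over the 23 arrays, those most like *Gadd45b* were *Spaca3* (r = 0.85), *Yod1* (0.84) and *Kcnh3* (0.81). For *Gadd45a* they were *Atpaf2* (0.79), *Mien1* (0.78) and *Gm4285* (0.77). *Cdkn1a* was most like *Mcm3* (0.81), *Ddias* (0.81) and *Fem1c* (0.77), and *Phlda3* most like *Itga11* (0.83), *Hpca* (0.82) and *Gpx8* (0.82).

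Other genes of the p53 pathway gave a background for these responses. Of 30 other p53 targets, 28 passed the filter, and their median log2 change was -0.03 in WT and -0.03 in *Pxr*-/- mice, close to that of all genes. By limma, 17 of the 28 in WT and 8 in *Pxr*-/- mice had an unadjusted p under 0.05. Of the 21056 genes tested, 7553 and 4812 did so. In WT mice 3.79% of all genes were called higher and 2.39% lower. In WT mice 5 rose: *Sulf2*, an extracellular heparan sulfatase (1.70), *Ckap2* and *Psrc1*, both spindle proteins (1.31 and 0.87), *Plk3*, a stress-activated kinase (0.71), and the death receptor *Tnfrsf10b* (0.68). *Perp*, a desmosomal membrane protein linked to p53-dependent death, fell (-0.65, adjusted p = 2.88e-06), and its change differed between the genotypes (-0.62, adjusted p = 0.00131). The death receptor *Fas* alone of the 28 was called in *Pxr*-/- mice (0.66), where 1.42% of all genes were called higher. Its change in WT mice was 0.46 (limma, adjusted p = 0.054).

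Of 10 genes that encode p53 or control it, all passed the filter and none was called by limma in either genotype, although 6 in WT and 1 in *Pxr*-/- mice had an unadjusted p under 0.05. *Trp53* itself had a log2 change of 0.27 (SE 0.11, adjusted p = 0.0808) in WT and 0.19 (SE 0.10, adjusted p = 0.292) in *Pxr*-/- mice. Of 19 other growth arrest genes 18 passed, with a median of -0.18 in WT and -0.24 in *Pxr*-/- mice. In WT mice *Trp53inp2*, a paralogue of *Trp53inp1* that promotes autophagy, fell by 1.35, more than in *Pxr*-/- mice (difference -1.08, adjusted p = 0.00117), and the antiproliferative gene *Tob1* fell by 0.61. *Tob1* was not called in *Pxr*-/- mice (limma, -0.44, adjusted p = 0.0604). *Gas1*, a growth-arrest membrane protein, fell by 0.75 in *Pxr*-/- mice. In WT mice *Gas1* changed by -0.58 (limma, adjusted p = 0.00558), just under the fold threshold. The difference between the genotypes in *Gas1* was not called (0.17, adjusted p = 0.752).

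Genes of cell division were followed in the same livers. Of 16 proliferation genes 15 passed the filter, and 9 were called higher in WT mice, among them *Plk1* (1.41), *Mki67* (1.37) and *Ccna2* (1.32), with a median of 0.89 over the 15. In *Pxr*-/- mice 2 were called higher, *Mki67* (1.11) and *Plk1* (0.96), with a median of 0.40. *Ccnd1*, *Ccne1*, *Mcm2* and *Pcna* were not called in either genotype. None passed the test of the difference between the genotypes, where 2 had an unadjusted p under 0.05. *Cdkn1a*, the kinase inhibitor, whose call was not stable, was called higher in the same WT PCN group as these 9 genes.

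Immediate early genes are transcribed within minutes of a stimulus. Of 13 tested, 7 were called higher in WT mice, including *Myc* (2.77), *Egr1* (2.48), *Fos* (1.99), *Atf3* (1.53) and *Jun* (1.24). In *Pxr*-/- mice 5 were called higher, led by *Egr1* (2.97) and *Fos* (1.27). *Dusp1* and *Zfp36* were not called and had negative estimates in WT (-0.32 and -0.07) and in *Pxr*-/- mice (-0.61 and -0.30). *Myc* differed between the genotypes (2.24, adjusted p = 0.00417).

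**Figure D5:**
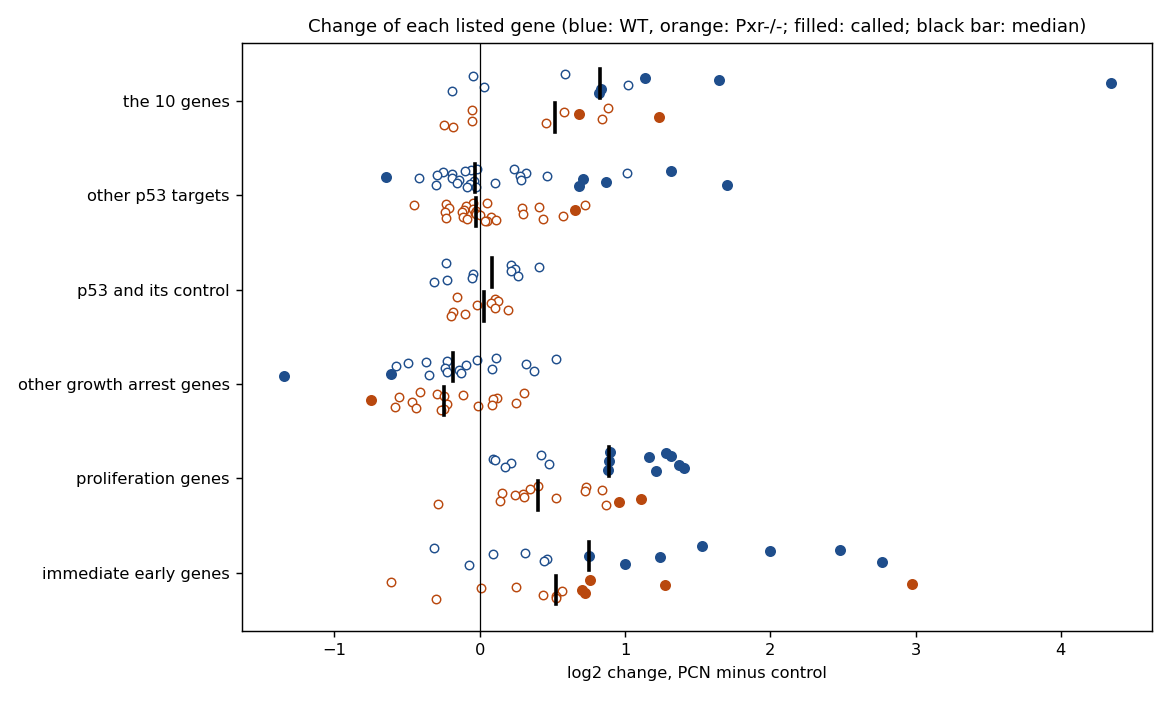
Log2 change with PCN (x axis) of each tested gene of 6 lists (rows), in WT (blue) and *Pxr*-/- mice (orange), filled where called, with a black bar at the median of the list. The medians of the 10 genes (0.83 and 0.52), of proliferation genes (0.89 and 0.40) and of immediate early genes lie to the right of 0, and the other lists lie around or left of it.

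Some markers of other liver cells moved with PCN as well. Of 4 tested neutrophil markers, *S100a8* (2.21 in WT, 2.19 in *Pxr*-/-) and *S100a9* (2.03 and 2.00) rose in both genotypes. *Camp* (0.91 and -0.28) and *Ly6g* (0.16 and 0.35) were not called, and *Ngp* was below the filter. The mean log2 signal of these 4 markers ranged from 7.56 to 9.14 without and 9.06 to 10.48 with PCN in WT mice, and from 7.85 to 9.38 without and 9.23 to 10.11 with PCN in *Pxr*-/- mice. Of 5 stellate cell markers, the collagen genes *Col1a1* (3.17 and 1.96) and *Col3a1* (2.18 and 1.22) rose. *Des*, *Lrat* and *Reln* were not called, and the median change of the 5 was 0.09 in WT and 0.12 in *Pxr*-/- mice. The mean log2 signal of the 5 ranged from 8.42 to 8.90, 9.11 to 10.03, 8.34 to 8.78 and 8.39 to 9.81 in the same order of groups.

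Of 5 cholangiocyte markers *Sox9* was called in WT mice (0.76) and none in *Pxr*-/- mice. The median change of the 5 was 0.73 in WT and 0.62 in *Pxr*-/- mice, and limma gave 3 an unadjusted p under 0.05 in each genotype. None of the 6 Kupffer cell, 5 endothelial or 5 tested lymphocyte markers was called by limma with PCN, with 0, 3 and 1 at an unadjusted p under 0.05 in WT and 0, 2 and 0 in *Pxr*-/- mice. The part of other cells in the changes of *Gadd45b*, *Gadd45a*, *Cdkn1a*, *Phlda3* and *Trp53inp1* was not tested.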

How the data were processed

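Per the file headers, the deposited scanner files hold Agilent Feature Extraction (10.10.1.1, per the submitters' processing notes) output, with a linear intensity per spot that was not normalized between arrays, and quality flags. The authors also deposited log2 values of 32574 probes, made by filtering the median signal, log2 transformation, correction for the washing batch and CrossNorm normalization. They served as an alternative.

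Here the median intensity of the 59305 spots per array that are no controls was used (62976 spots in all). Spots flagged as outliers were left out, spots of a probe averaged on the log2 scale, and probes kept if more than 50% of the arrays in at least 1 group showed them well above background. The 32087 probes kept were quantile normalized. limma 3.58.1 (R 4.3.3) fitted group and washing batch over all 23 arrays (18 residual degrees of freedom), so all groups share 1 estimate of the spread. A fit to simulated data for PCN in WT mice (32087 probes) recovered 96% of changes of 1 and 99% of changes of 2 on the log2 scale. The simulated noise was normal and independent between arrays, and smaller changes were not simulated. These shares are averages over randomly drawn probes, so they do not say how often a change of a single member would be called. Precision is limited by the number of arrays. Each array is a separate mouse. The labels list 6 mice in the WT PCN group, of which 5 arrays are analysed here.

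The named genes are the 10 members, called genes of the fixed lists (at most the 5 of largest change per list and comparison), defining cell markers and, for 4 members, the 3 genes of most similar residual pattern. All 138 listed genes were found on the array. The members and lists were chosen with earlier results of these data known. The alternatives tried were the processed signal scaled to its 75th percentile, normexp background correction (offset 50), the deposited values, no filter, slide as a block, no batch term, fewer groups in the fit, a replicate block, each batch alone, each array left out, the mean of a gene's probes and no fold threshold.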

Additional observations from a re-analysis of the deposited data

Results flagged for a closer look

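The change of *Gadd45b* with PCN differed between WT and *Pxr*-/- mice by 3.12 on the log2 scale (limma, adjusted p = 1.6e-05), with 5 of 5 WT PCN mice above every WT CONT mouse and 5 of 6 *Pxr*-/- PCN mice above every *Pxr*-/- CONT mouse. No array stood apart from its group by Dixon's criterion in any of the 40 combinations of gene and group.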

How the results depend on the processing

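The calls of *Gadd45b* in WT mice, in the test between genotypes and among PCN-treated mice were kept under every alternative run. Of 179 recomputed counts of called genes, 164 stayed within 1.5 times the count reported. In WT mice 2 genes were called within washing batch 2 alone. In *Pxr*-/- mice 0 were called within batch 1 and 1 within batch 2, and 1 to 3 when 1 array was left out. The difference between genotypes was called for 2 genes with normexp background correction, with the replicate block and with both high arrays left out, and for 1 to 2 with 1 array left out. Among PCN-treated mice 4 genes were called in the deposited values, whose median over all probes was shifted by -0.18 in that comparison (0.11 for PCN in WT mice and -0.11 between control groups), and 1 within batch 2. The cause of these differences was not tested.

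*Gadd45a* differed between genotypes with normexp (0.97, adjusted p = 0.0498) and with the replicate block (1.05, adjusted p = 0.0276). The replicate block also called *Btg2* in *Pxr*-/- mice (0.88, adjusted p = 0.0376). *Gadd45a* lost its call in *Pxr*-/- mice without the batch term (adjusted p = 0.0511). Over 33 pairs of arrays with the same replicate number the deviations correlated at -0.17 to 0.61 (median 0.0028), and 13 pairs exceeded 0.1. Pairs of different numbers were not compared, so these values cannot say whether replicate numbers pair the arrays.

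Signs turned only for values that were not called. In WT mice *Mdm2* gave -0.13 in batch 2 and -0.0012 as the mean of its probes (-0.0369 to 0.10 with 1 array left out), *Ccng1* 0.10 in the deposited values and 0.0701 in batch 1 (-0.20 to 0.0264), *Gadd45g* -0.15 and *Btg2* -0.36 in batch 2. In *Pxr*-/- mice *Ccng1* gave 0.0003 in the deposited values and 0.0608 in batch 1, and *Trp53inp1* 0.0016 in batch 1. Between genotypes batch 2 gave -0.12 for *Cdkn1a*, -0.0714 for *Mdm2*, -0.0043 for *Ccng1* and -0.65 for *Gadd45g*, and batch 1 gave 0.55 for *Btg2* and -0.19 for *Sesn1* (-0.0144 to 0.14 with 1 array left out). *Ccng1* gave -0.0276 in the processed signal, -0.0488 with normexp and -0.12 without both high arrays (-0.14 to 0.081), and *Gadd45g* -0.0248 without both high arrays (-0.21 to 0.54). For the difference between genotypes, fitting fewer groups gives the reported fit.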
